A study of Mus musculus with 16 samples.

Results

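The 8 genes Hmgcs1, Idi1, Fdps, Fdft1, Sqle, Insig1, Abca1 and Abcg1 were followed in single-cell RNA-Seq of cultured bone marrow stromal cells (BMSCs). They were chosen by name, as genes of cholesterol synthesis and its feedback (6 genes) and of cholesterol efflux (2 genes), and all 8 were found among the 32285 genes counted. Cultures came from mice of 4 genotypes, 12 weeks old, and were kept for 21 days in osteogenic medium with 10 mM β-glycerophosphate. The study asked what the loss of DMP1, a bone matrix protein of osteocytes, and of FGF23, the phosphate-lowering hormone that osteocytes make, did to these cells. All 4 genotypes carried 2 floxed Fgf23 alleles (Fgf23fl/fl). WT mice were Dmp1+/+ without Cre, Fgf23cKO mice were Dmp1+/+ with a Cre transgene under the Dmp1 promoter, Dmp1KO mice were Dmp1-/- without Cre, and Dmp1KO/Fgf23cKO mice were Dmp1-/- with that Cre. The Dmp1 promoter drives Cre chiefly in osteocytes and mature osteoblasts, so deletion of Fgf23 was limited to cells that had used it.

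Cells make cholesterol from acetyl-CoA through the mevalonate and squalene steps, and take it up as lipoprotein. When sterol in the endoplasmic reticulum is low, SCAP escorts the transcription factor SREBP2 to the Golgi, where it is cleaved and then switches on the synthesis enzymes and Insig1. INSIG1 holds SCAP back when sterol is sufficient, and oxysterols that build up with cholesterol load activate the nuclear receptors LXRα and LXRβ, which switch on Abca1 and Abcg1. Macrophages rely on this efflux arm, since they take up lipoprotein, dead cells and debris, whereas matrix-forming cells need sterol for membrane growth and secretion.

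Promoters are shown for a synthesis enzyme, for the feedback brake and for an efflux pump, and were searched for letters by which sterol-responsive genes are often recognised. Of the 8 genes, 4 (Hmgcs1, Idi1, Insig1 and Abca1) were in the RefSeq promoter table of GRCm38.p6, and Fdps, Fdft1, Sqle and Abcg1 were not. Capitals mark a match, the bases are in lower case otherwise, and each run is read 5′ to 3′ on the strand of its gene. Matches were searched on both strands. In Hmgcs1 (chr13:119690101-119690350, plus strand) the capitals are a sterol regulatory element, TCACNCCAC, which begins 137 bases before the RefSeq start, and 3 CCAAT boxes, which lie on the opposite strand and so read ATTGG. In Insig1 (chr5:28071162-28071362, plus strand) they are a CCAAT box on the opposite strand, 216 bases before the RefSeq start. In Abca1 (chr4:53159896-53160145, minus strand) they are the direct repeat bound by LXR with its partner RXR, on the opposite strand, 67 bases before the start. Insig1 held no match to the sterol regulatory element or to the LXR repeat, and neither did Idi1, whose promoter is not printed.
Hmgcs1: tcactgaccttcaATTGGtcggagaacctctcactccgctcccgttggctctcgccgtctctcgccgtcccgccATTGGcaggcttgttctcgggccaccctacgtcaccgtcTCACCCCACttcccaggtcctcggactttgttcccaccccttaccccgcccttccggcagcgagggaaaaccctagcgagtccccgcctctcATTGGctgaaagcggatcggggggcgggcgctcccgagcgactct
Insig1: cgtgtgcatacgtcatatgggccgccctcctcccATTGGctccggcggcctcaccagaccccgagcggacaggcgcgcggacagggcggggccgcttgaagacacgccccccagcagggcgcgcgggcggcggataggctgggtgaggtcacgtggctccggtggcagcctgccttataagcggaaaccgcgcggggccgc
Abca1: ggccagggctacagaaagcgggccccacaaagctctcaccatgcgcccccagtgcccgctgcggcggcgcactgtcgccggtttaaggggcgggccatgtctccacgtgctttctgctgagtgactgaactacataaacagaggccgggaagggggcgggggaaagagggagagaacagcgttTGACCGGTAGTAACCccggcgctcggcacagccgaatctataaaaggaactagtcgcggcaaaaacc
Among 32851 promoters in the table, 1.24% held the sterol regulatory element, 37.4% a CCAAT box and 0.207% the LXR direct repeat. A match describes the letters only.

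Dmp1 was examined first in every culture. It had 457, 442 and 1770 unique molecular identifiers (UMIs, each a counted transcript) in the 3 WT cultures, 934, 1177 and 152 in Fgf23cKO, 0 and 3 in the 2 Dmp1KO cultures used, and 76, 47 and 26 in Dmp1KO/Fgf23cKO. Fgf23 had 0 to 8 UMIs per culture, too few to check its deletion. The study tagged 3 cultures per genotype, pooled them and ran each pool in 1 droplet reaction, so that genotype and reaction cannot be told apart, and the first Dmp1KO culture was not used here, which leaves n = 2 for Dmp1KO and n = 3 for the others. The 11 tagged cultures held 470.0 to 2825 cells and 9518928 to 72482185 UMIs, with a median of 7137 to 7275.5 UMIs per cell in WT cultures and of 20016.5 to 34988 in the others. Barcodes listed in more than 1 genotype numbered 44, of 19684 distinct ones, and none was listed in more than 1 sample of a genotype. Clustering gave 20 clusters, which were named from marker lists. Macrophage-like cells numbered 270.0 to 2226 per culture, and their 15 macrophage markers summed to 36716 to 48916 CPM (UMIs scaled to the total of the class in a culture), against 40.0 to 130.0 stromal cells, which are the osteoprogenitor-like, pre-osteoblast 1-like and osteoblast/osteocyte-like cells together.

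In macrophage-like cells the synthesis enzymes were higher and Abca1 was lower in Dmp1KO than in WT. All 8 genes passed the test in this comparison, where 69.7% of all genes tested did so, and nothing particular to the members was read from the count. Fdps rose most among the 8, 3.22-fold, and Hmgcs1, Idi1, Fdft1 and Sqle rose 1.44 to 1.95-fold. Values are in CPM, the UMIs of a gene scaled to the summed UMIs of the macrophage-like cells of a culture with TMM factors, and a gene passed with an adjusted p under 0.1 in edgeR's quasi-likelihood test. The cultures are separate only as far as their tags say, so p-values measure the spread between tagged cultures of 1 reaction. Summed counts cannot tell less RNA per cell from fewer cells with the RNA.

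Hmgcs1, which makes HMG-CoA for the mevalonate pathway, stood at 30.3, 27.0 and 29.8 CPM in WT cultures, 30.2, 30.2 and 29.2 in Fgf23cKO, 44.9 and 46.8 in Dmp1KO, and 42.6, 41.6 and 45.5 in Dmp1KO/Fgf23cKO. Both genotypes without Dmp1 lay above both genotypes with it, with no overlap. The difference from WT was 0.67 ± 0.07 on the log2 scale (± SE throughout) in Dmp1KO (adjusted p = 5.3e-07) and 0.58 ± 0.06 in Dmp1KO/Fgf23cKO (adjusted p = 4.2e-06, edgeR), whereas it was 0.05 ± 0.07 in Fgf23cKO (adjusted p = 0.59). Idi1, the isomerase that supplies dimethylallyl diphosphate, had 9.03, 9.46 and 10.2 CPM in WT, 8.72, 9.49 and 6.82 in Fgf23cKO, 13.7 and 14.1 in Dmp1KO, and 12.1, 11.4 and 13.5 in Dmp1KO/Fgf23cKO. It also lay higher in both genotypes without Dmp1 than in both with it, with no overlap and with differences from WT of 0.53 ± 0.12 in Dmp1KO and 0.34 ± 0.12 in Dmp1KO/Fgf23cKO. Both genes rested on modest counts, Idi1 on 53 to 642 UMIs per culture. Neither passed between Dmp1KO/Fgf23cKO and Dmp1KO, with differences of -0.09 ± 0.06 for Hmgcs1 and -0.19 ± 0.10 for Idi1. Idi1 passed there without the third Dmp1KO/Fgf23cKO culture (adjusted p = 0.078) or the third Fgf23cKO culture (adjusted p = 0.074), and in Fgf23cKO against WT without the second Fgf23cKO culture (-0.33, adjusted p = 0.074, edgeR). Over the 25 alternatives run for each, its adjusted p ranged from 0.059 to 0.72 and from 0.052 to 0.62, beside 0.20 with all cultures for the latter. The calls of Idi1 against WT were not stable either, and over their 25 alternatives the adjusted p reached 0.92 in Dmp1KO and 0.69 in Dmp1KO/Fgf23cKO.

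Fdps, which makes farnesyl diphosphate at the branch between sterols and prenylated proteins, had a graded pattern. Its CPM were 18.1, 17.8 and 19.1 in WT, 24.2, 23.1 and 26.7 in Fgf23cKO, 31.7, 30.8 and 32.7 in Dmp1KO/Fgf23cKO, and 62.0 and 56.3 in Dmp1KO. The 4 genotypes did not overlap, and each difference that was tested passed, with 1.69 ± 0.07 for Dmp1KO against WT (adjusted p = 4.1e-10), 0.43 ± 0.08 for Fgf23cKO against WT (adjusted p = 0.00068), 0.79 ± 0.08 for Dmp1KO/Fgf23cKO against WT (adjusted p = 1.2e-06) and -0.90 ± 0.06 for Dmp1KO/Fgf23cKO against Dmp1KO (adjusted p = 3.5e-08, edgeR). Over the 25 alternatives run for each, the adjusted p of Fdps reached 0.69 in Fgf23cKO and 0.11 in Dmp1KO/Fgf23cKO, both against WT. The step from Fgf23cKO to Dmp1KO/Fgf23cKO was not among the 4 comparisons.

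Fdft1 and Sqle, squalene synthase and squalene epoxidase, catalyse the first steps committed to sterol. Fdft1 had 8.86, 7.93 and 7.08 CPM in WT, 7.49, 7.63 and 7.91 in Fgf23cKO, 15.8 and 14.7 in Dmp1KO, and 10.1, 8.58 and 10.3 in Dmp1KO/Fgf23cKO. Sqle had 9.37, 9.97 and 10.53 CPM in WT, 13.1, 10.7 and 10.6 in Fgf23cKO, 20.02 and 19.1 in Dmp1KO, and 14, 14.4 and 13.9 in Dmp1KO/Fgf23cKO. Both were highest in Dmp1KO, by 0.96 ± 0.11 (adjusted p = 2.3e-06) and 0.96 ± 0.10 (adjusted p = 6.5e-07) over WT, and both fell in Dmp1KO/Fgf23cKO against Dmp1KO, by 0.67 and 0.47 on the log2 scale. Fdft1 in Dmp1KO/Fgf23cKO still passed against WT (0.30 ± 0.11, adjusted p = 0.043), although its cultures overlapped those of WT, and this call was lost without either the first or the third Dmp1KO/Fgf23cKO culture or the third WT culture (adjusted p = 0.13, 0.10 and 0.20), with adjusted p from 0.017 to 0.60 over the 25 alternatives run. Sqle passed there with no overlap (0.49 ± 0.10, adjusted p = 0.00075, edgeR).

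Over the class as a whole, Insig1, the sterol-sensing brake and itself an SREBP2 target, did not follow the enzymes. Its CPM were 27.9, 30.6 and 29.9 in WT, 21.7, 23.2 and 18.3 in Fgf23cKO, 23.7 and 26.7 in Dmp1KO, and 30.1, 29.3 and 28.6 in Dmp1KO/Fgf23cKO. It fell by 0.50 ± 0.09 in Fgf23cKO (adjusted p = 0.00053) and by 0.23 ± 0.09 in Dmp1KO (adjusted p = 0.03), both against WT, and rose by 0.22 ± 0.08 in Dmp1KO/Fgf23cKO against Dmp1KO (adjusted p = 0.026, edgeR). The calls that involve Dmp1KO rested on single cultures. Without the second Dmp1KO culture, with the other one assumed to vary like the rest, the adjusted p was 0.28 against WT and 0.28 for Dmp1KO/Fgf23cKO against Dmp1KO, and without the second WT culture the former was 0.10. Over the 25 alternatives run for each, the adjusted p ranged from 0.0055 to 0.28 and from 0.0039 to 0.28.

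**Figure D1:**
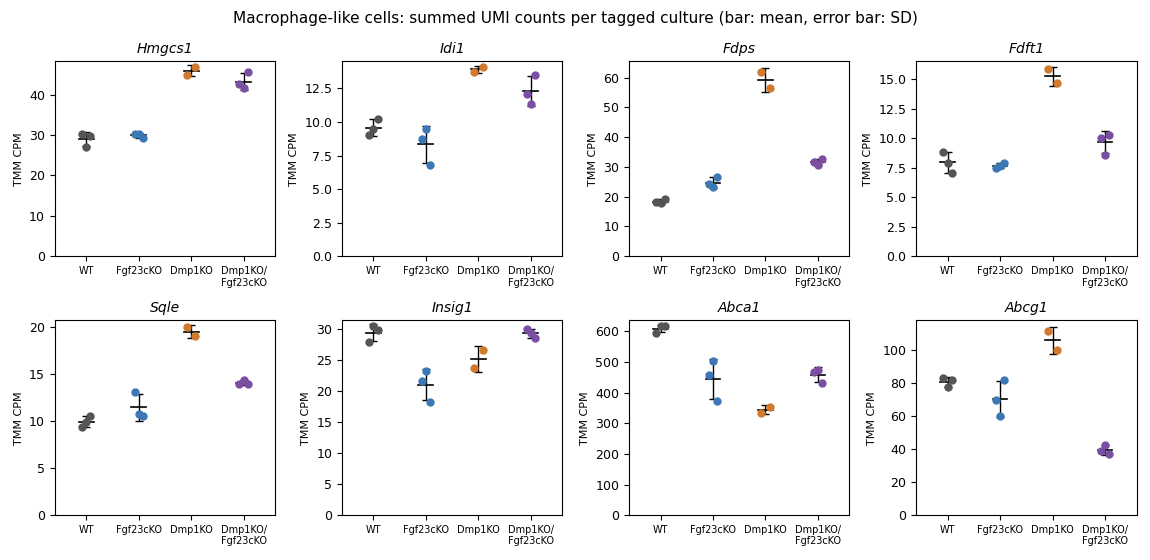
CPM of the 8 genes in macrophage-like cells, in 1 panel per gene with a linear axis from 0, with 1 point per tagged culture (3 per genotype, 2 for Dmp1KO), a bar at the mean and an error bar of 1 SD. Fdps separates all 4 genotypes, Hmgcs1 and Idi1 separate the genotypes with and without Dmp1, and Abca1 is lowest in Dmp1KO at 333 and 354 CPM.

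The efflux pumps moved apart from each other. Abca1, which loads cholesterol onto apolipoprotein A-I, had 594, 616 and 616 CPM in WT, 459, 502 and 371 in Fgf23cKO, 333 and 354 in Dmp1KO, and 468, 475 and 431 in Dmp1KO/Fgf23cKO. It was highest in every WT culture and lowest in both Dmp1KO cultures, while Fgf23cKO and Dmp1KO/Fgf23cKO overlapped. It fell by 0.83 ± 0.10 in Dmp1KO (adjusted p = 3.0e-06), by 0.46 ± 0.08 in Fgf23cKO (adjusted p = 0.00064) and by 0.41 ± 0.08 in Dmp1KO/Fgf23cKO (adjusted p = 0.0011), each against WT, and was 0.42 ± 0.09 higher in Dmp1KO/Fgf23cKO than in Dmp1KO (adjusted p = 0.0015, edgeR). Abcg1, which passes cholesterol to high-density lipoprotein, had 83.3, 77.5 and 81.6 CPM in WT, 69.9, 60.1 and 81.9 in Fgf23cKO, 112 and 100.0 in Dmp1KO, and 38.7, 42.6 and 37.1 in Dmp1KO/Fgf23cKO. Dmp1KO lay above and Dmp1KO/Fgf23cKO below all other cultures. The change was 0.39 ± 0.10 in Dmp1KO (adjusted p = 0.0026) and -1.03 ± 0.10 in Dmp1KO/Fgf23cKO against WT (adjusted p = 8.9e-07), and -1.42 ± 0.10 between Dmp1KO/Fgf23cKO and Dmp1KO (adjusted p = 2.4e-08, edgeR). In Fgf23cKO it was -0.19 ± 0.09, which did not pass (adjusted p = 0.13) and passed without the third culture of that genotype (adjusted p = 0.0053, the lowest of a range up to 0.49 over the 25 alternatives run).

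Counted over the 8 genes, 3 passed in Fgf23cKO against WT beside 49.7% of all genes tested, 7 in Dmp1KO/Fgf23cKO against WT beside 55.2%, and 6 in Dmp1KO/Fgf23cKO against Dmp1KO beside 67.1%. Read against these shares, the counts of members do not stand out. The median log2 difference of the 6 synthesis and feedback genes was 0.81 in Dmp1KO, 0.01 in Fgf23cKO and 0.42 in Dmp1KO/Fgf23cKO against WT, where the median of all genes tested was 0.01, 0.01 and 0.00. As a description with no test, the UMIs of the 2 pumps were 6.54 to 6.75 times those of the 6 synthesis and feedback genes in WT cultures, 4.55 to 5.38 times in Fgf23cKO, 2.47 to 2.56 times in Dmp1KO and 3.24 to 3.81 times in Dmp1KO/Fgf23cKO. These sums are led by Abca1, the most abundant member.

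**Figure D2:**
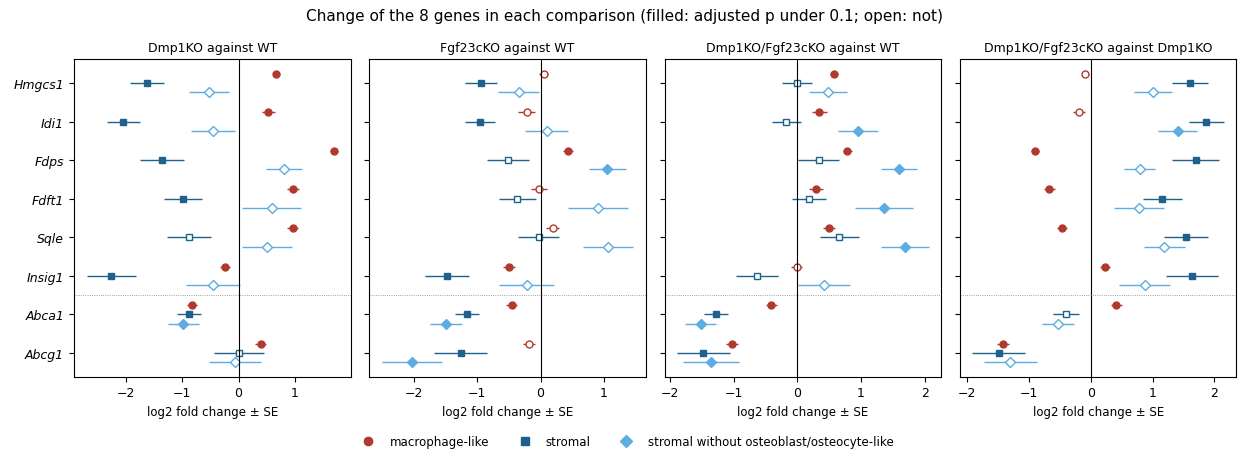
Log2 difference of each of the 8 genes (horizontal, with bars of 1 SE) in the 4 comparisons, 1 panel each, in macrophage-like cells (circles), stromal cells (squares) and stromal cells without osteoblast/osteocyte-like cells (diamonds), filled where the adjusted p was under 0.1. In Dmp1KO against WT, Fdps stands at 1.69 in macrophage-like and at -1.36 in stromal cells, and Abca1 is below 0 in all 3.

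Whether the change with loss of Dmp1 depended on Fgf23 status was tested as an interaction, the difference between Dmp1KO/Fgf23cKO and Fgf23cKO minus that between Dmp1KO and WT. It passed for 6 of the 8 genes, beside 62.7% of all genes tested. It was -1.33 ± 0.10 for Fdps (adjusted p = 1.2e-07), -0.66 ± 0.13 for Sqle (adjusted p = 0.00067) and -0.64 ± 0.15 for Fdft1 (adjusted p = 0.0026), so that loss of Dmp1 went with smaller rises on the Fgf23cKO background. It was 0.87 ± 0.13 for Abca1 (adjusted p = 4.0e-05), 0.72 ± 0.12 for Insig1 (adjusted p = 0.00014) and -1.23 ± 0.13 for Abcg1 (adjusted p = 2.7e-06, edgeR). Hmgcs1 (-0.14 ± 0.09) and Idi1 (0.04 ± 0.17) did not pass.

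Several other quantities moved with genotype in the macrophage-like cells, and their part in these results was not tested. The median macrophage-like cell had 7205 to 7543.5 UMIs in WT cultures, 34544 to 38133.5 in Fgf23cKO, 20166 to 21660.5 in Dmp1KO and 34966.5 to 36077.5 in Dmp1KO/Fgf23cKO, and mitochondrial transcripts made up 2.65 to 2.78%, 3.57 to 3.72%, 3.03% and 3.72 to 4.03% of UMIs. With every cell thinned to 1300 UMIs, Fdps, Hmgcs1, Abca1 and Abcg1 kept their direction in every comparison in which they had passed, while Idi1 turned to -0.042 in Dmp1KO and -0.24 in Dmp1KO/Fgf23cKO against WT. Of 10 proliferation genes, 8 rose and none fell in Dmp1KO against WT (summed level 248 to 271 CPM against 207 to 213), and of 9 dissociation-stress genes tested 1 rose and 5 fell (1473 to 1486 CPM against 1818 to 2122). The 13 osteoblast/osteocyte markers summed to 9145 to 11257 CPM in Dmp1KO and to 1539 to 1766 in WT macrophage-like cells, but Spp1, which macrophages also make, was 99.6% of the Dmp1KO sum. Without Spp1 the sum was 37.8 to 39.7 CPM in Dmp1KO, 152 to 174 in WT, 221 to 227 in Fgf23cKO and 348 to 352 in Dmp1KO/Fgf23cKO. Of the 11 markers tested, 1 rose and 9 fell in Dmp1KO, and Dmp1 and Sost had no UMI there.

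The class was made up differently in each genotype. Cluster 0 (leading genes Marco and Maf) held 83.3% of the WT macrophage-like cells and cluster 6 (Slc7a11, Gdf15) held 13.1%. Cluster 1 (Egr3, F13a1, Cd86) held 53.1% and cluster 6 27.1% of those of Fgf23cKO, and they held 77.0% and 12.3% of those of Dmp1KO/Fgf23cKO. In Dmp1KO, clusters 2 (Itgax, Mmp12, Dcstamp), 4 (H2-Aa, Cd74), 3 (Trib3, Ddit3), 1 and 10 (Lpl, Chst10) held 25.3, 21.98, 20.6, 16.8 and 12.7%. Within Dmp1KO the pumps varied widely between these clusters. Abca1 was at 139 CPM in cluster 2, 208 in cluster 10 and 498 in cluster 4, and Abcg1 at 35.2 CPM in cluster 10, 89.1 in cluster 2 and 230.5 in cluster 3, in plain CPM without TMM factors. Fdps was at 63.6 CPM in cluster 2 and 80.4 in cluster 10, and at 39.9 in cluster 1, 30.9 in cluster 4, 29.2 in cluster 3 and 18.2 in cluster 6. Clusters were drawn from all variable genes, so these levels are a description.

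Within single clusters that all genotypes shared, the class-wide pattern held for some genes and not for others. In cluster 1, where WT had 46 cells and 0 to 12 UMIs of each synthesis or feedback gene per culture, Hmgcs1 (1.66 ± 0.39) and Fdps (1.51 ± 0.47) rose and Abca1 (-0.56 ± 0.11) and Abcg1 (-1.38 ± 0.33) fell in Dmp1KO against WT, 4 genes beside 10.7% of all genes tested. The same cluster gave 1 gene in Fgf23cKO against WT (Abca1, -0.43 ± 0.11) beside 9.18%, and 3 in Dmp1KO/Fgf23cKO against WT beside 9.56% (Hmgcs1 1.47 ± 0.39, Abca1 -0.46 ± 0.11, Abcg1 -0.91 ± 0.31). The median of all genes tested in cluster 1 lay 0.13 above 0 in each of these comparisons with WT. Dmp1KO/Fgf23cKO against Dmp1KO, which did not involve WT, gave 6 genes beside 23% in cluster 1, with Idi1 (-0.69 ± 0.13), Fdft1 (-0.76 ± 0.16), Sqle (-0.49 ± 0.14), Insig1 (-0.47 ± 0.09) and Fdps (-0.40 ± 0.10) lower and Abcg1 (0.47 ± 0.11) higher.

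In cluster 6, Abcg1 had 194, 163 and 178 CPM in WT, 91.4, 60.7 and 61.1 in Fgf23cKO, 106 and 106 in Dmp1KO, and 49.4, 50.7 and 52.2 in Dmp1KO/Fgf23cKO. Every mutant culture was below every WT culture. It was the 1 member that passed in Dmp1KO against WT (-0.74 ± 0.16, beside 23.2% of all genes). The median log2 difference of the 6 synthesis and feedback genes in that comparison was -0.32 in cluster 6. It was 1.49 in cluster 1 and 0.81 in the class, so the class-wide rise was not seen in cluster 6. Fgf23cKO against WT gave 3 (Abcg1 -1.31 ± 0.13, Hmgcs1 -0.50 ± 0.15, Abca1 -0.40 ± 0.10) beside 32.3%, Dmp1KO/Fgf23cKO against WT gave 3 (Abcg1 -1.81 ± 0.14, Fdps 0.79 ± 0.18, Abca1 -0.43 ± 0.10) beside 37.7%, and Dmp1KO/Fgf23cKO against Dmp1KO gave 3 (Abcg1 -1.07 ± 0.17, Fdps 0.82 ± 0.23, Hmgcs1 0.60 ± 0.19) beside 8.27%. The rise of Abcg1 over the whole class in Dmp1KO thus stood beside falls in clusters 1 and 6. Fdps in Dmp1KO/Fgf23cKO against Dmp1KO likewise was lower in the class and in cluster 1 and higher in cluster 6. Insig1 in the same comparison was higher in the class and lower in cluster 1, where Idi1, Fdft1, Sqle and Fdps were lower too.

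In cluster 3, with 2 WT cultures and a median of all genes 0.18 to 0.20 above 0 against WT, no member passed in Dmp1KO against WT by edgeR (13.5% of all genes did), and 1 had an unadjusted p under 0.05. The median log2 difference of the synthesis and feedback genes tested in that comparison was -0.34, with 0 to 6 UMIs of each in a WT culture. Abcg1 fell in Fgf23cKO (-1.07 ± 0.33, beside 6.04%) and in Dmp1KO/Fgf23cKO (-1.36 ± 0.34, beside 8.22%), each the 1 member that passed, and Hmgcs1 (0.57 ± 0.18) and Sqle (1.205 ± 0.33) were higher in Dmp1KO/Fgf23cKO than in Dmp1KO (2 genes beside 12.8%). Idi1 was too low to test there.

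The other enzymes of sterol synthesis were taken from a list of 16. In macrophage-like cells of Dmp1KO against WT 10 rose and 1 fell, beside 69.7% of all genes tested that passed, led by mevalonate kinase Mvk (2.03), phosphomevalonate kinase Pmvk (1.36), the sterol isomerase Ebp (1.32) and the lanosterol demethylase Cyp51 (0.94), all log2 differences. In Fgf23cKO 5 rose and 4 fell, beside 49.7%, with Mvk at 0.91. In Dmp1KO/Fgf23cKO 9 rose and 2 fell against WT, beside 55.2% (Mvk 1.32), and 1 rose and 9 fell against Dmp1KO, beside 67.1% (Pmvk -0.75, Mvk -0.72). These counts are read against the shares over all genes, and nothing particular to the list was read from them. Of the 6 genes of the SREBP system 1 rose and 3 fell in Dmp1KO, with Srebf2, which encodes SREBP2, at 0.26 and Srebf1 at -0.34. Srebf2 was 0.40 above WT in Dmp1KO/Fgf23cKO, where 2 of the 6 rose and 1 fell.

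Uptake genes and LXR genes did not move one way. Of 9 uptake genes tested in macrophage-like cells, 2 rose and 5 fell in Dmp1KO, with the VLDL receptor Vldlr at -3.62, the scavenger receptor Msr1 at -0.81 and the oxidised-LDL receptor Olr1 at 0.99. Olr1 was 2.33 above WT in Dmp1KO/Fgf23cKO, where 4 rose and 5 fell, and in Fgf23cKO 1 rose and 5 fell. Of 9 genes of the LXR list, which leaves out the 2 pumps, 4 rose and 4 fell in Dmp1KO, with the receptor gene Nr1h3 (LXRα) at 0.69, and the LXR targets Arl4c and Apoe at -0.76 and -0.59. In Fgf23cKO 4 rose and 4 fell, with Nr1h3 at 0.55 and Apoe at -0.49, and in Dmp1KO/Fgf23cKO 3 rose and 2 fell. Of 8 genes for lysosomal release, transport and esterification of cholesterol, 2 rose and 2 fell in Dmp1KO, with the lysosomal cholesterol exporter Npc1 at -0.81. The esterifying enzyme Soat1 was at -0.51 in Fgf23cKO and -0.62 in Dmp1KO/Fgf23cKO, where its list gave 2 up and 2 down, and 3 up and 3 down. Ch25h, which makes 25-hydroxycholesterol, was at -0.99 in Dmp1KO, 0.56 in Fgf23cKO and 0.47 in Dmp1KO/Fgf23cKO against WT. Of 10 fatty acid synthesis genes 3 rose and 3 fell in Dmp1KO, and none rose and 3 fell in each of the other genotypes.

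In stromal cells Hmgcs1, Idi1, Fdps and Fdft1, which rose in macrophage-like cells, fell in Dmp1KO against WT. Insig1 fell in both classes, Sqle did not pass, and Abca1 fell in every mutant genotype. In Dmp1KO against WT 6 of the 8 genes passed, all lower, beside 24.6% of all genes tested. In Fgf23cKO 5 passed, all lower, beside 15.6%, in Dmp1KO/Fgf23cKO 2 passed, both pumps, beside 20.4%, and in Dmp1KO/Fgf23cKO against Dmp1KO 7 passed, with 6 higher, beside 10.7%. The make-up of the stromal cells moved with these results and is given beside them. Osteoblast/osteocyte-like cells supplied 42.7, 42.7 and 55.1% of stromal UMIs in WT, 33.9, 36.6 and 9.10% in Fgf23cKO, 4.88 and 9.50% in Dmp1KO, and 26.4, 46.4 and 24.8% in Dmp1KO/Fgf23cKO.

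Hmgcs1 had 89.4, 79.9 and 124 CPM in WT stromal cells, 36.5, 65.9 and 54.0 in Fgf23cKO, 30.8 and 33.8 in Dmp1KO, and 94.5, 127 and 74.0 in Dmp1KO/Fgf23cKO. Insig1 had 45.4, 79.9 and 97.9 CPM in WT, 29.0, 31.5 and 18.3 in Fgf23cKO, 14.5 and 16.6 in Dmp1KO, and 48.7, 67.9 and 26.8 in Dmp1KO/Fgf23cKO. For both genes WT lay above Fgf23cKO and Fgf23cKO above Dmp1KO, without overlap. Hmgcs1 fell by 1.62 ± 0.30 in Dmp1KO (adjusted p = 0.0046) and by 0.94 ± 0.25 in Fgf23cKO (adjusted p = 0.039), and Insig1 fell by 2.26 ± 0.43 (adjusted p = 0.0054) and 1.48 ± 0.35 (adjusted p = 0.024, edgeR). Idi1 had 38.4, 42.8 and 51.9 CPM in WT, 21.4, 25.6 and 22.8 in Fgf23cKO, 9.50 and 12.02 in Dmp1KO, and 31.6, 54.9 and 31.9 in Dmp1KO/Fgf23cKO. It fell by 2.04 ± 0.30 in Dmp1KO (adjusted p = 0.0014) and by 0.95 ± 0.24 in Fgf23cKO (adjusted p = 0.031, edgeR).

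Fdps and Fdft1 also fell in Dmp1KO against WT, and Sqle did not pass. Fdps had 64.9, 105 and 125 CPM in WT, 61.9, 92.4 and 51.5 in Fgf23cKO, 37.1 and 39.6 in Dmp1KO, and 91.4, 189 and 91.1 in Dmp1KO/Fgf23cKO. It fell by 1.36 ± 0.40 in Dmp1KO against WT (adjusted p = 0.035, edgeR). Fdft1 had 27.2, 25.5 and 30.3 CPM in WT, 16.0, 25.2 and 25.3 in Fgf23cKO, 14.5 and 13.97 in Dmp1KO, and 25.8, 45.3 and 22.9 in Dmp1KO/Fgf23cKO, and fell by 0.98 ± 0.34 in Dmp1KO against WT (adjusted p = 0.068, edgeR). Sqle had 13.96, 18.5 and 36.3 CPM in WT, 21.2, 25.9 and 24.8 in Fgf23cKO, 12.2 and 13.97 in Dmp1KO, and 27.5, 51.1 and 35.8 in Dmp1KO/Fgf23cKO, and passed in none of the comparisons with WT (-0.88 ± 0.39 in Dmp1KO, adjusted p = 0.15, edgeR).

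Against Dmp1KO, all 6 synthesis and feedback genes were higher in Dmp1KO/Fgf23cKO, by 1.16 ± 0.31 for Fdft1 to 1.87 ± 0.29 for Idi1. Without the second Dmp1KO/Fgf23cKO culture, which was the highest of its genotype for each of the 6, 3 members passed in place of 7, and without either Dmp1KO culture 1 did. In Dmp1KO against WT, 3 passed without the second Dmp1KO culture in place of 6. In Fgf23cKO against WT, 1 passed without the third WT culture in place of 5, and in Dmp1KO/Fgf23cKO against WT 4 passed without its second culture in place of 2.

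**Figure D3:**
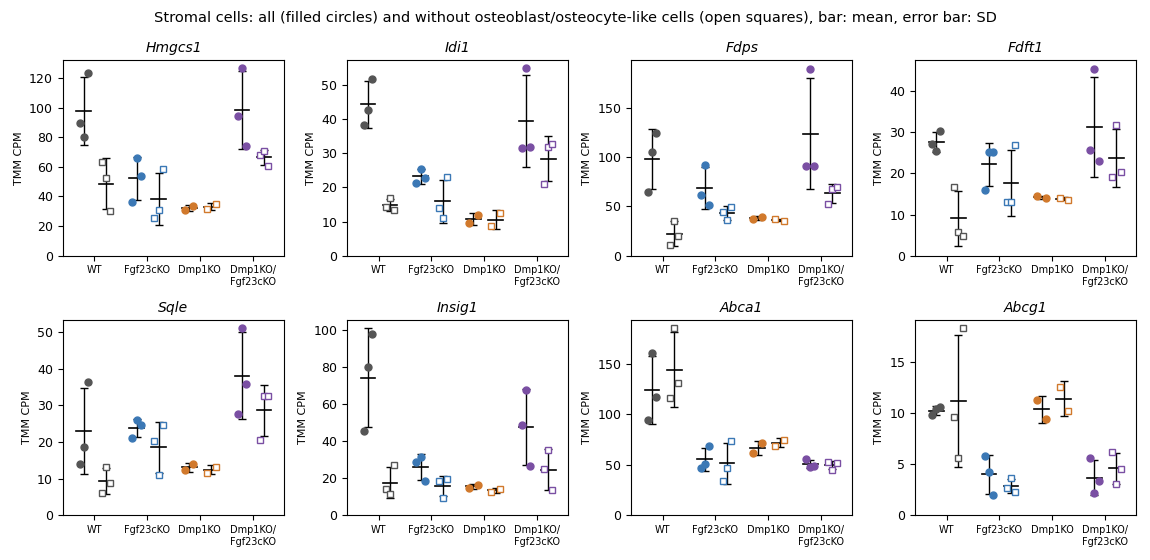
CPM of the 8 genes in stromal cells, in 1 panel per gene with a linear axis from 0, with 1 point per tagged culture, a bar at the mean and an error bar of 1 SD, for all stromal cells (filled circles) and without osteoblast/osteocyte-like cells (open squares). In all stromal cells both Dmp1KO cultures lie below all WT cultures for Hmgcs1, Idi1, Fdps, Fdft1 and Insig1, and without those cells they lie apart from WT for Idi1 and overlap WT for Hmgcs1, Fdps, Fdft1 and Insig1.

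The pumps differed from the synthesis genes in stromal cells. Abca1 had 94.2, 161 and 117 CPM in WT, 46.6, 50.8 and 68.4 in Fgf23cKO, 61.5 and 71.5 in Dmp1KO, and 55.2, 47.9 and 48.3 in Dmp1KO/Fgf23cKO. Every mutant culture was below every WT culture, and the falls were 0.87 ± 0.22 in Dmp1KO (adjusted p = 0.018), 1.16 ± 0.19 in Fgf23cKO (adjusted p = 0.0044) and 1.28 ± 0.19 in Dmp1KO/Fgf23cKO (adjusted p = 0.0015, edgeR). Abcg1 was scarce, with 4 to 29 UMIs per culture. It had 9.77, 10.4 and 10.6 CPM in WT, 5.79, 4.26 and 1.98 in Fgf23cKO, 11.3 and 9.42 in Dmp1KO, and 5.58, 2.14 and 3.35 in Dmp1KO/Fgf23cKO. It fell by 1.27 ± 0.42 in Fgf23cKO (adjusted p = 0.083) and by 1.48 ± 0.41 in Dmp1KO/Fgf23cKO (adjusted p = 0.035), against WT, and by 1.48 ± 0.43 in Dmp1KO/Fgf23cKO against Dmp1KO (adjusted p = 0.065, edgeR). In Dmp1KO it was 0.01 ± 0.44 from WT.

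Macrophage RNA was present in the stromal sums, and its part in the Abca1 and Abcg1 levels was not tested. All 15 macrophage markers had UMIs there, and they summed to 2811 to 5232 CPM in WT, 2877 to 6531 in Fgf23cKO, 3062 to 5127 in Dmp1KO and 2882 to 3592 in Dmp1KO/Fgf23cKO. Of the 15, 1 rose and 3 fell in Dmp1KO, none rose and 1 fell in Fgf23cKO, and none rose and 3 fell in Dmp1KO/Fgf23cKO, against WT. In pre-osteoblast 1-like cells, levels were taken as a percentage of those in macrophage-like cells. The median marker stood at 6.18% in WT, 7.40% in Fgf23cKO, 7.68% in Dmp1KO and 5.57% in Dmp1KO/Fgf23cKO. In the same order, the highest marker stood at 19.3, 14.7, 11.6 and 10.4%, and Abca1 at 19.5, 11.2, 24.4 and 10.7%. Abca1 was thus within the marker range in Fgf23cKO and above it in the other genotypes, by little in WT and Dmp1KO/Fgf23cKO. Abcg1, on 18 to 45 UMIs per genotype, stood at 10.98, 4.02, 12.01 and 12.05%. Abcg1 was within the range in WT, below it in Fgf23cKO (lowest marker 5.14%) and above it in Dmp1KO and Dmp1KO/Fgf23cKO. In osteoprogenitor-like cells the median marker stood at 27.0, 12.9, 26.1 and 8.05%, and Abca1 at 43.6, 3.30, 19.5 and 5.80%, so that in the 3 mutant genotypes it was below the median marker. It was below all 15 markers in Fgf23cKO, where the lowest stood at 5.72%, and within their range in Dmp1KO (13.1 to 45.3%) and Dmp1KO/Fgf23cKO (2.80 to 18.1%).

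The stromal comparison was repeated without osteoblast/osteocyte-like cells, an alternative chosen after seeing the data. Most of the falls of the synthesis genes were then no longer seen, while those of Abca1 stayed. Hmgcs1 had 63.4, 52.6 and 29.9 CPM in WT, 25.5, 30.8 and 58.5 in Fgf23cKO, 31.3 and 34.8 in Dmp1KO, and 67.8, 70.7 and 60.8 in Dmp1KO/Fgf23cKO, with overlap between WT and both single mutants. Fdps had 10.8, 35.7 and 20.3 CPM in WT, 44.1, 36.0 and 49.9 in Fgf23cKO, 37.3 and 35.6 in Dmp1KO, and 52.5, 67.3 and 69.8 in Dmp1KO/Fgf23cKO. Its direction turned, to a rise of 1.06 ± 0.29 in Fgf23cKO (adjusted p = 0.044) and of 1.60 ± 0.28 in Dmp1KO/Fgf23cKO (adjusted p = 0.0037, edgeR), with 0.81 ± 0.32 in Dmp1KO, which did not pass (adjusted p = 0.13). Abca1 had 116, 186 and 131 CPM in WT, 33.5, 46.4 and 73.9 in Fgf23cKO, 68.6 and 74.9 in Dmp1KO, and 52.3, 45.3 and 51.4 in Dmp1KO/Fgf23cKO. The differences from WT were -0.98 ± 0.27 in Dmp1KO, -1.499 ± 0.25 in Fgf23cKO and -1.52 ± 0.24 in Dmp1KO/Fgf23cKO, without overlap.

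In these counts, Dmp1KO against WT gave 1 of the 8 genes beside 15.2% of all genes tested, and 2 had an unadjusted p under 0.05. Fgf23cKO against WT gave 3 (Fdps, Abca1 and Abcg1) beside 14.7%. Dmp1KO/Fgf23cKO against WT gave 6 beside 19.8%, with Fdps, Sqle (1.69 ± 0.37), Fdft1 (1.37 ± 0.46) and Idi1 (0.95 ± 0.32) higher and both pumps lower. Dmp1KO/Fgf23cKO against Dmp1KO gave 1 beside 2.71%, Idi1 (1.41 ± 0.32), and 5 with an unadjusted p under 0.05. Hence the higher synthesis genes of Dmp1KO/Fgf23cKO against WT appeared when osteoblast/osteocyte-like cells were left out, and the lower ones of Dmp1KO when they were kept.

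Pre-osteoblast 1-like cells, which carried most of the remaining UMIs, gave similar values. Abca1 had 106, 142 and 125 CPM in WT, 35.2, 49.5 and 82.7 in Fgf23cKO, 65.0 and 79.1 in Dmp1KO, and 56.4, 47.8 and 49.8 in Dmp1KO/Fgf23cKO, with every mutant culture below WT. Fdps had 9.55, 39.4 and 21.9 CPM in WT, on 7 to 20 UMIs per culture, 44.6, 35.6 and 51.8 in Fgf23cKO, 34.3 and 34.9 in Dmp1KO, and 53.5, 70.3 and 72.0 in Dmp1KO/Fgf23cKO. In Dmp1KO against WT no member passed by edgeR, beside 12.1% of all genes, and 1 had an unadjusted p under 0.05 (Abca1, -0.77 ± 0.28, adjusted p = 0.12). In Fgf23cKO 2 passed beside 11.7%, Fdps (1.00 ± 0.33) and Abca1 (-1.18 ± 0.26). In Dmp1KO/Fgf23cKO 5 passed beside 15.8%, with Sqle (1.76 ± 0.39), Fdps (1.57 ± 0.31), Fdft1 (1.41 ± 0.44) and Idi1 (0.98 ± 0.34) higher and Abca1 (-1.26 ± 0.25) lower. The WT cultures had only 5 to 7 UMIs of Sqle, 3 to 12 of Fdft1 and 8 to 14 of Idi1. Against Dmp1KO no member passed in Dmp1KO/Fgf23cKO by edgeR, where 0.952% of all genes did, and 5 had an unadjusted p under 0.05, with differences of 0.78 to 1.39 for the 6 synthesis and feedback genes. In place of 7 calls over these 4 comparisons, 4 were made without the second Dmp1KO/Fgf23cKO culture, and 4 without the third WT culture.

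In osteoprogenitor-like cells Fdps and Abca1 were the only members with enough UMIs to test. Abca1 had 172, 446 and 163 CPM in WT, on 19 to 34 UMIs, 21.9, 0 and 13.8 in Fgf23cKO, 88.1 and 39.9 in Dmp1KO, and 11.2, 23.1 and 82.7 in Dmp1KO/Fgf23cKO, so that WT lay above all mutant cultures. The differences of Abca1 from WT were -1.96 ± 0.65 in Dmp1KO, -3.99 ± 0.71 in Fgf23cKO and -2.74 ± 0.61 in Dmp1KO/Fgf23cKO. In the same order, Fdps was higher by 1.87 ± 0.62, 1.76 ± 0.61 and 2.03 ± 0.58. Fdps had 1 or 2 UMIs in each WT culture, so only the mutant cultures brought it past the filter on low counts. A higher level than in WT was thus nearly set in advance, and no rise of Fdps is read from these calls. Of 14 macrophage markers tested in these cells, 1 rose and none fell in Dmp1KO, and none rose and 4 fell in each of Fgf23cKO and Dmp1KO/Fgf23cKO, against WT. All 15 had UMIs there, and they summed to 6706 to 19725 CPM in WT, 2438 to 10325 in Fgf23cKO, 4898 to 13460 in Dmp1KO and 2722 to 7711 in Dmp1KO/Fgf23cKO. Of 8 dissociation-stress genes tested none rose, and 1 fell in Dmp1KO, 4 in Fgf23cKO and 6 in Dmp1KO/Fgf23cKO. The part of both lists in the Abca1 and Fdps differences was not tested. Abca1 and Fdps both passed in these 3 comparisons, beside 12.9, 17.2 and 33.9% of all genes tested, the Fdps calls with the limit above. Without the second or the third WT culture 3 of these 6 calls were left. The median of all genes lay 0.12 below 0 in Dmp1KO and in Dmp1KO/Fgf23cKO. Neither passed in Dmp1KO/Fgf23cKO against Dmp1KO by edgeR (4.29% of all genes did).

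Osteoblast/osteocyte-like cells reached the minimum of 10 cells in every culture only in WT and Dmp1KO/Fgf23cKO, and their values are given without a test. Hmgcs1 had 124, 120 and 193 CPM in WT and 170, 183 and 120 in Dmp1KO/Fgf23cKO. Fdps had 139, 210.3 and 202 CPM in WT and 199, 318 and 163 in Dmp1KO/Fgf23cKO. Insig1 had 87.4, 184 and 150 CPM in WT and 114, 101 and 69.8 in Dmp1KO/Fgf23cKO, and Abca1 had 62.7, 117 and 96.3 in WT and 65.6, 48.3 and 41.9 in Dmp1KO/Fgf23cKO. The genotypes overlapped for each of the 4 genes, and all Hmgcs1 and Fdps values lay above those of pre-osteoblast 1-like cells of the same genotypes, although the classes were scaled separately.

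Among the other sterol enzymes in stromal cells of Dmp1KO, 1 rose and 8 fell of 16 against WT, beside 24.6% of all genes tested, with the sterol reductase Dhcr7 (-1.77) and Cyp51 (-1.42) among those that fell, and in Dmp1KO/Fgf23cKO against Dmp1KO 10 rose and none fell, beside 10.7% (Dhcr7 1.52, Cyp51 1.49). Srebf2 fell by 1.30 in Dmp1KO against WT and was 1.15 higher in Dmp1KO/Fgf23cKO than in Dmp1KO. Of 8 uptake genes tested, none rose and 5 fell in Dmp1KO (Vldlr -2.27, Lrp8 -1.93), and none rose and 3 fell in Dmp1KO/Fgf23cKO, with the fatty acid and lipoprotein receptor Cd36 at -2.23. Of the fatty acid synthesis genes 6 fell in Dmp1KO, led by the desaturase Scd1 (-2.82). No gene of the LXR list passed in Dmp1KO by edgeR. Of 12 osteoblast/osteocyte markers tested in the same sums, none rose and 10 fell in Dmp1KO, and 9 rose and none fell in Dmp1KO/Fgf23cKO against Dmp1KO.

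Whether a genotype changed a gene differently in stromal and in macrophage-like cells was tested directly, in 1 fit with each culture as a block. In Dmp1KO the 6 synthesis and feedback genes differed between the classes, beside 15.5% of all genes tested. The change from WT in stromal cells minus that in macrophage-like cells was -3.00 ± 0.38 for Fdps (adjusted p = 0.00017), -2.54 ± 0.34 for Idi1 (adjusted p = 0.00028), -2.22 ± 0.30 for Hmgcs1 (adjusted p = 0.00028), -1.99 ± 0.38 for Insig1 (adjusted p = 0.0034), -1.89 ± 0.39 for Fdft1 (adjusted p = 0.0058) and -1.78 ± 0.38 for Sqle (adjusted p = 0.0073, edgeR). The median over all genes tested was -0.10. Abca1 (0.01 ± 0.26) and Abcg1 (-0.33 ± 0.40) did not pass. Of the 16 other sterol enzymes, 14 were lower in this difference.

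In Fgf23cKO no member differed between the classes by edgeR, where 1.39% of all genes did, and 6 had an unadjusted p under 0.05. In Dmp1KO/Fgf23cKO none did, beside 2.75%, and 1 had an unadjusted p under 0.05. DESeq2 called 7 differences over the 3 genotypes, against 6 by edgeR. Without osteoblast/osteocyte-like cells no member passed in Dmp1KO (7.35% of all genes did, and 2 members had an unadjusted p under 0.05, with Hmgcs1 at -1.07 ± 0.35), none in Fgf23cKO (1.11%, and 5 members with an unadjusted p under 0.05) and 1 in Dmp1KO/Fgf23cKO (2.45%), Abca1 at -1.05 ± 0.29 (adjusted p = 0.093). The difference between the classes in Dmp1KO thus depended on the cells counted as stromal.

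Across clusters, the synthesis genes went together and apart from the pumps. In the 18 clusters with at least 50 tagged cells, the 15 pairs of synthesis and feedback genes had correlations of log2 CPM from 0.65 to 0.90 (median 0.83), the 2 pumps 0.73, and the 12 pairs between the groups -0.37 to 0.27 (median -0.17). Clusters share libraries and differ in depth, so these are descriptions. The sum of the 6 genes was highest in cluster 16, osteoblast/osteocyte-like, at 629 CPM, where the pumps summed to 53.7 CPM. Cluster 14, also osteoblast/osteocyte-like, went the other way, with 128 CPM for the 6 genes and 245 CPM for the pumps. Its cells had a median of 1048 UMIs, against 61183.5 in cluster 16, and the part of depth and of macrophage RNA in this contrast was not tested. The 6 genes summed to 212 CPM in the macrophage-like cluster 10 and to 186 CPM in the cycling cluster 8 and in cluster 13, the pre-osteoblast 1-like cells. The pumps were highest in cluster 0 at 689 CPM, where the 6 genes summed to 108 CPM. Among these 18 clusters the sum of the 6 genes was lowest in cluster 7, at 32.5 CPM beside 54.6 CPM for the pumps. The cells of that cluster had a median of 74.9% mitochondrial UMIs and entered none of the classes.

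**Figure D4:**
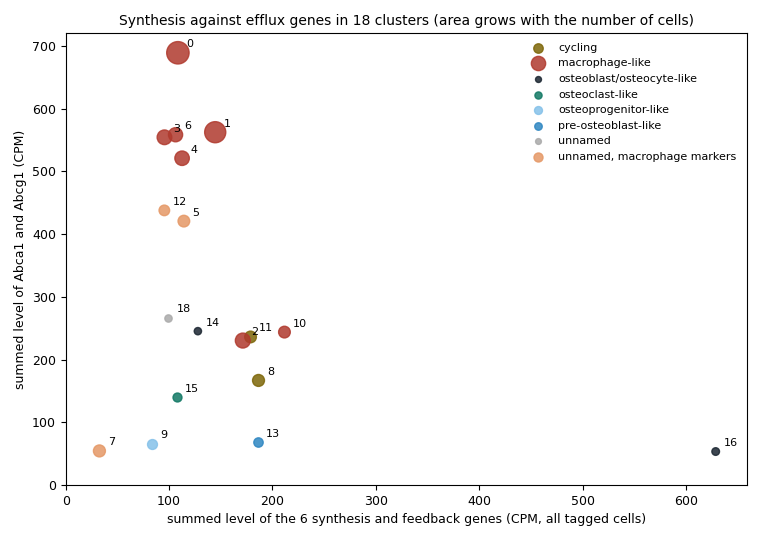
Summed CPM of the 6 synthesis and feedback genes (horizontal) against that of Abca1 and Abcg1 (vertical), both linear, with 1 point per cluster of at least 50 tagged cells, numbered, coloured by name and with an area that grows with its cells. Cluster 16 stands at the far right with 629 and 53.7 CPM, and the macrophage-like cluster 0 at the top with 108 and 689 CPM.

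Genes whose levels over these 18 clusters were most like the mean of the synthesis and feedback genes, among 14612 compared, were Gmppb, Rrbp1, Nbas, Disp1 and Selenos, with correlations of 0.87 to 0.88. Those most like the mean of the pumps were Mthfs, Fnip2, Tnfrsf1b, Cd300a and Cln3, with correlations of 0.96 to 0.98.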

How the data were processed

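Droplet counts of BMSC cultures of WT, Fgf23cKO, Dmp1KO and Dmp1KO/Fgf23cKO mice were used. The values deposited by the authors are raw UMI counts per barcode, of 32285 genes and of 12 culture tags, and the tags were kept out of totals. The submitters' processing notes name Cell Ranger, Seurat and the build mm10. The authors assigned barcodes to cultures and removed multiplets by tag. No doublet caller was run here, and multiplets within a culture remain. Sample 4 of each genotype was read as untagged cells of the same pool. It entered the clustering and the alternative with untagged cells as a replicate, but none of the main tests. The first Dmp1KO culture was not used here, and bulk RNA-Seq was not analysed here.

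All 17793 cells were clustered, with no filter on cells, with Seurat 5.3.0 and sctransform 0.4.2 under R 4.3.3 (30 principal components, resolution 0.8). Clusters were named from marker lists, where at least 3 markers were detected and no other list led the cluster. Unnamed clusters entered no class.

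Counts were summed per class and tagged culture over at least 10 cells, and all genotypes were fitted together in edgeR 4.0.16 with its filter on low counts, TMM factors and the quasi-likelihood test. Benjamini-Hochberg adjustment ran over all genes tested, with a threshold of 0.1. The SE is the absolute log2 difference divided by the square root of F. Same-numbered cultures of different genotypes had deviations that correlated from -0.21 to 0.07 in macrophage-like and from -0.14 to 0.14 in stromal cells, so the numbers were not taken as pairs. Replicate cultures differed by more than sampling noise (chi-square of 5.48 to 35.0 per degree of freedom). In simulated macrophage-like counts for Dmp1KO against WT, on 12868 genes, 98.5% of genes changed 1.5-fold and 100% of those changed 2-fold were recovered. In simulated stromal counts, on 12043 genes, 19.4% of those changed 1.5-fold, 59.7% of those changed 2-fold and 100% of those changed 4-fold were. Only 66 or 67 genes were changed at each fold, all above a minimum level, and every gene was given the same spread. Many more genes passed in the data, so the shares recovered there may differ.

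Alternatives were untagged cells as a replicate, each culture left out, a replicate block, DESeq2 1.42.0, RLE factors, low counts kept, at least 20 cells per sum, an adjusted p under 0.05, a filter on cells, other clusterings, cells thinned to 1300 UMIs and all cells of a culture. Promoters are RefSeq's. The named genes are the 8 members, the 4 genes of each related list with the largest log2 difference past the threshold, Srebf2, and the 5 genes most like the members across clusters. Some genes that this rule names are not reported here, although the counts over the lists include them. The members and lists were chosen with earlier results of these data known.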

Additional observations from a re-analysis of the deposited data

Results flagged for a closer look

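In macrophage-like cells the change that went with loss of Dmp1 differed between the Fgf23cKO background and the background with unrecombined Fgf23, by a test of the interaction, for 6 of the 8 genes, beside 62.7% of all genes tested. The log2 differences between the changes were -1.33 for Fdps, -0.64 for Fdft1, -0.66 for Sqle, 0.72 for Insig1, 0.87 for Abca1 and -1.23 for Abcg1.

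The change from WT to Dmp1KO differed between stromal and macrophage-like cells, by a test of the difference itself, for the 6 synthesis and feedback genes, beside 15.5% of all genes tested. Without osteoblast/osteocyte-like cells none of the 8 members passed in this difference by edgeR, and 2 had an unadjusted p under 0.05. The stromal minus the macrophage-like change was -2.22 for Hmgcs1, -2.54 for Idi1, -3.00 for Fdps, -1.89 for Fdft1, -1.78 for Sqle and -1.99 for Insig1.

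Both sets of values compare genotypes that were run in 1 droplet reaction each, and the part of the reaction was not tested. The search for single cultures far from the rest of their group did not apply, since no genotype has more than 3 tagged cultures.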

How the results depend on the processing

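Counts of members that passed ranged, with each culture left out in turn, from 7 to 8 in Dmp1KO, 3 to 4 in Fgf23cKO and 6 to 7 in Dmp1KO/Fgf23cKO against WT and from 5 to 7 in Dmp1KO/Fgf23cKO against Dmp1KO in macrophage-like cells, and from 3 to 6, 1 to 5, 2 to 4 and 1 to 7 in stromal cells. Over all comparisons of a kind, they ranged from 3 to 7 (6 with all cultures) in osteoprogenitor-like cells, 4 to 10 (7) in pre-osteoblast 1-like cells, 22 to 31 (28) in single macrophage-like clusters, 5 to 8 (6) for the difference between classes and 6 to 6 for the interaction. With the replicate number as a block, the macrophage-like counts were 8, 3, 7 and 6, the stromal counts 7, 5, 2 and 7, and the others 4 in osteoprogenitor-like cells, 7 in pre-osteoblast 1-like cells, 26 in single clusters and 6 for the interaction, and the difference between classes already had culture as a block. With cells thinned to 1300 UMIs, Dmp1KO/Fgf23cKO against WT gave 4 in macrophage-like cells, the stromal comparisons gave 0, 1, 1 and 0, single clusters 5 and the difference between classes 1. With all cells of a culture, Dmp1KO/Fgf23cKO against Dmp1KO gave 3 in place of the macrophage-like 6 and 3 in place of the stromal 7, and Dmp1KO/Fgf23cKO against WT gave 6 in place of the stromal 2. Without osteoblast/osteocyte-like cells the stromal counts were 1, 3, 6 and 1, and the difference between classes 1. In osteoprogenitor-like cells DESeq2 gave 3 and an adjusted p under 0.05 gave 3, and in pre-osteoblast 1-like cells the latter gave 4. With untagged cells as a replicate the pre-osteoblast 1-like count was 13 and that between classes 12, and with no filter on low counts they were 16 and 13. Thinning turned Idi1 to -0.042 and -0.24 in macrophage-like cells of Dmp1KO and Dmp1KO/Fgf23cKO. With all cells of a culture, stromal Fdps (1.28), Idi1 (0.15), Hmgcs1 (0.44), Fdft1 (0.69) and Sqle (0.93) turned in Dmp1KO. Hmgcs1 (0.51) turned in Dmp1KO/Fgf23cKO against WT, and Fdps (-0.48), Fdft1 (-0.35) and Sqle (-0.26) against Dmp1KO. Most cells of a culture were macrophage-like, and the part of this was not tested. Without osteoblast/osteocyte-like cells Fdps (0.81) and Fdft1 (0.59) turned in Dmp1KO, Fdps (1.06) and Idi1 (0.10) in Fgf23cKO and Idi1 (0.95) in Dmp1KO/Fgf23cKO. Of 4683 values of single members under alternatives, 4222 kept direction and call, 199 lost the call, 130 gained it, 116 moved without a call and 16 turned. The cause was not tested for any of these changes. Thinned sums and a minimum of 20 cells did not cover every comparison in osteoprogenitor-like and pre-osteoblast 1-like cells, so their counts are not given. The same held for a minimum of 20 cells in single clusters. Fgf23, at 0 to 8 UMIs per culture, and stromal Abcg1, at 4 to 29, were limited by depth. The stromal simulations, which changed only genes above a minimum level, recovered 59.7% of those changed 2-fold.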
